A study of Mus musculus with 6 samples.

Results

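The adipokines examined here are 9 secreted products of adipocytes: adiponectin (*Adipoq*), leptin (*Lep*), adipsin (*Cfd*), resistin (*Retn*), retinol binding protein 4 (*Rbp4*), apelin (*Apln*), NAMPT, also called visfatin (*Nampt*), angiotensinogen (*Agt*) and chemerin (*Rarres2*). They were chosen by symbol, and all 9 were found among the 37384 gene symbols counted and among the 15674 genes abundant enough to be tested. RNA came from adipocytes of inguinal subcutaneous white adipose tissue (scWAT) of male mice at postnatal day 7, which were freed with collagenase and collected by flotation. Both genotypes carry loxP-flanked alleles of *Lats1* and *Lats2*, the kinases of the Hippo pathway that restrain YAP and TAZ. The 3 control libraries are L1L2-FF (Lats1f/fLats2f/f) and the other 3 are L1L2-AKO (Lats1f/fLats2f/fAdipoqCre), in which Cre is expressed from the promoter of *Adipoq*, itself one of the 9 adipokines. Each library pooled 4 mice, so that differences between single mice cannot be seen.

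Adipokines carry information from fat to other organs. Adiponectin and leptin are the classical pair: adiponectin, assembled into multimers in the endoplasmic reticulum, acts on liver and muscle through AdipoR1 and AdipoR2, and leptin reports fat stores to the hypothalamus through the leptin receptor. Adipsin is complement factor D, the protease that cleaves factor B and so drives the alternative complement pathway, and in mice it is among the most abundant transcripts of mature white adipocytes. Resistin in mice is made mainly by adipocytes, whereas chemerin, apelin, angiotensinogen and NAMPT are also made by other cells.

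Levels are given as CPM, which are counts brought to a common library size with TMM factors that ranged from 0.924 to 1.06, and total counts per library lay between 30548473 and 32107917. Of all genes tested, 16.5% differed between the genotypes at an adjusted p under 0.05, 7.18% lower and 9.28% higher in L1L2-AKO, and the median log2 fold change was -0.02. *Lats1* was 2.06-fold lower in the libraries labelled L1L2-AKO, but *Lats2*, the other targeted gene, was 1.56-fold higher (adjusted p = 0.0278, edgeR, Benjamini-Hochberg). Counts over a whole gene do not show a deleted exon, and since *Lats2* goes against the label, the groups are called by their labels throughout. By RT-qPCR, the authors report that both genes were reduced in scWAT adipocytes isolated from L1L2-AKO males of the same age. Adipocyte markers were abundant in all 6 libraries, with the 15 genes from *Plin1* to *Trarg1* summing to 26220 to 31333 CPM in L1L2-FF and 17598 to 21372 CPM in the libraries labelled L1L2-AKO, and 7 of the 15 fell. The 11 macrophage markers summed to 269 to 525 and to 968 to 1078 CPM, with 10 of the 11 higher. The 5 Schwann cell markers summed to 415 to 1182 and to 139 to 365 CPM, with 3 lower, and the 7 endothelial markers to 1826 to 2466 and to 1068 to 2324 CPM, with 0 past the threshold. The 7 progenitor markers summed to 1566 to 2270 and to 988 to 1618 CPM, with 2 lower, and the 6 mural markers to 974 to 1336 and to 740 to 977 CPM, with 1 higher and 2 lower. Of the lymphocyte, neutrophil, red cell and skeletal muscle markers tested, 0 passed. No marker of these lists was at 3 counts or fewer in all libraries, and the part of these other cells in the adipokine values was not tested.

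The 9 adipokines split into 3 that fell and 6 that did not pass the threshold, and 0 rose. *Cfd*, *Retn* and *Adipoq* were lower in the libraries labelled L1L2-AKO, by 17.6-fold, 3.58-fold and 2.40-fold. These 3 of 9 stand beside 7.18% of all genes tested that were lower, and the 0 that rose beside 9.28% that were higher. As the 9 were chosen with earlier results of these data known, these shares are not tests. The same 3 were the only ones of the 9 whose 2 groups did not overlap, as held for 36.4% of all genes tested. The median log2 fold change of the 9 was -0.66, with a range from -4.14 to 0.41. *Lep*, at the upper end of this range, was the one of the 4 most abundant adipokines that did not fall past the threshold. In bulk RNA, fewer adipocytes and less of a transcript per adipocyte cannot be told apart.

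**Figure D1:**
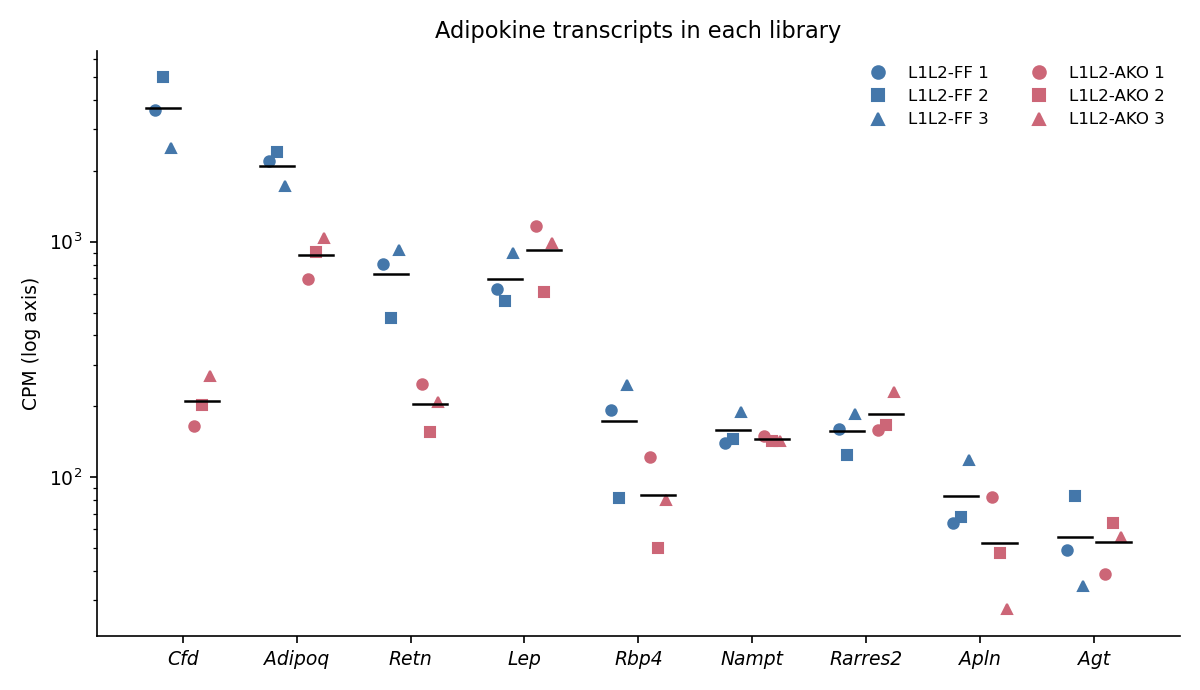
CPM of the 9 adipokines in each library on a log axis, ordered by their L1L2-FF mean, with black bars for group means (n = 3 each). The groups separate for Cfd, Adipoq and Retn and overlap for the other 6.

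*Cfd* (ENSMUSG00000061780.6, chr10:79890853-79892655, + strand) changed the most. Its level was 3642, 4996 and 2514 CPM in L1L2-FF and 164, 201 and 268 CPM in the libraries labelled L1L2-AKO. The lowest control library was far above the highest library of the other label. The means were 3718 ± 1243 and 211 ± 52.5 CPM (SD over 3 libraries each), and the log2 fold change was -4.14 ± 0.33 (SE; adjusted p = 4.0e-04, edgeR, Benjamini-Hochberg). Per kilobase of exon, *Cfd* ranked 9 among all counted genes with a known exon length in L1L2-FF and 137 in the libraries labelled L1L2-AKO.

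*Adipoq* (ENSMUSG00000022878.5, chr16:23146536-23158028, + strand), the gene whose promoter drives the Cre, had 2207, 2396 and 1720 CPM in L1L2-FF and 695, 901 and 1036 CPM in the libraries labelled L1L2-AKO. Every control library was above every library of the other label. The log2 fold change was -1.26 ± 0.21 (SE; adjusted p = 0.0064, edgeR, Benjamini-Hochberg). Per kilobase of exon, *Adipoq* came after *Cfd* in L1L2-FF, at rank 17 among the same counted genes, and first of the 9 in the libraries labelled L1L2-AKO, at rank 42.

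*Retn* (ENSMUSG00000012705.16, chr8:3655770-3660110, + strand) had 803, 476 and 919 CPM in L1L2-FF and 249, 156 and 209 CPM in the libraries labelled L1L2-AKO. The second L1L2-FF library was low but still above all 3 libraries of the other label. The log2 fold change was -1.84 ± 0.28 (SE; adjusted p = 0.0039, edgeR, Benjamini-Hochberg).

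The 3 genes that fell kept their call in all 16 alternatives of normalization, test, filter, block and left-out library. Without one library at a time, the log2 fold change of *Cfd* stayed between -4.36 and -3.87, that of *Retn* between -2.07 and -1.65 and that of *Adipoq* between -1.40 and -1.12.

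*Lep* (ENSMUSG00000059201.12, chr6:29060220-29073877, + strand) had 627, 560 and 895 CPM in L1L2-FF and 1169, 614 and 989 CPM in the libraries labelled L1L2-AKO. The groups overlapped. The log2 fold change of 0.41 did not pass the threshold (adjusted p = 0.356, edgeR, Benjamini-Hochberg), and its 95% interval, -0.21 to 1.04, spans 0 and lies wholly above the log2 fold change of *Adipoq*.

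*Rarres2* (ENSMUSG00000009281.6, chr6:48569696-48572789, − strand), which attracts immune cells that carry its receptor CMKLR1, also had its highest single value in a library labelled L1L2-AKO. Its levels were 160, 124 and 185 CPM in L1L2-FF and 159, 167 and 230 CPM in the libraries labelled L1L2-AKO, a log2 fold change of 0.24 (95% interval -0.21 to 0.69; adjusted p = 0.458, edgeR, Benjamini-Hochberg). The groups overlapped. Its exons overlap those of *Lrrc61* on the opposite strand, and the strand setting of the counting is not given in the sources used here. Reads that fall in the overlap therefore cannot be assigned to 1 of the 2 genes.

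*Rbp4* (ENSMUSG00000024990.13, chr19:38116629-38125281, − strand), the carrier of retinol in blood, varied between replicates, with a coefficient of variation of 48.6% in L1L2-FF and 42.7% in the libraries labelled L1L2-AKO. It had 192, 81.4 and 247 CPM in L1L2-FF and 122, 50.1 and 79.9 CPM in the libraries labelled L1L2-AKO. The second L1L2-FF library lay within the range of the other label. The log2 fold change was -1.05 ± 0.43 (SE), with an adjusted p of 0.138 (edgeR, Benjamini-Hochberg). Without that library it was -1.39, with an adjusted p of 0.0234 by the same test. With all 6 libraries it also passed with DESeq2's Wald test (0.0477) and with the replicate number as a block in edgeR (0.0265), so that both the library and the choice of test decide this call.

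*Apln* (ENSMUSG00000037010.7, chrX:48025146-48034853, − strand), a peptide that acts on vessels, had 64.0, 67.5 and 118 CPM in L1L2-FF and 82.7, 47.6 and 27.5 CPM in the libraries labelled L1L2-AKO. The spread within a label was as wide as the difference between labels, with a log2 fold change of -0.66 (95% interval -1.56 to 0.24). *Agt* (ENSMUSG00000031980.9, chr8:124556534-124569706, − strand), the precursor of angiotensin, had 49.1, 83.1 and 34.5 CPM in L1L2-FF and 38.8, 63.7 and 55.8 CPM in the libraries labelled L1L2-AKO. All values of the second group lay inside the range of the first, and the log2 fold change was -0.07 (95% interval -0.80 to 0.65). *Nampt* (ENSMUSG00000020572.8, chr12:32819545-32853349, + strand), the enzyme that recycles nicotinamide into NAD and is also found outside cells, had 139, 145 and 189 CPM in L1L2-FF and 150, 142 and 143 CPM in the libraries labelled L1L2-AKO. Its log2 fold change was the most tightly bounded of the 9, at -0.12 with a 95% interval of -0.45 to 0.20. The adjusted p-values of the 3 genes were 0.302, 0.905 and 0.611 (edgeR, Benjamini-Hochberg), and none passed.

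**Figure D2:**
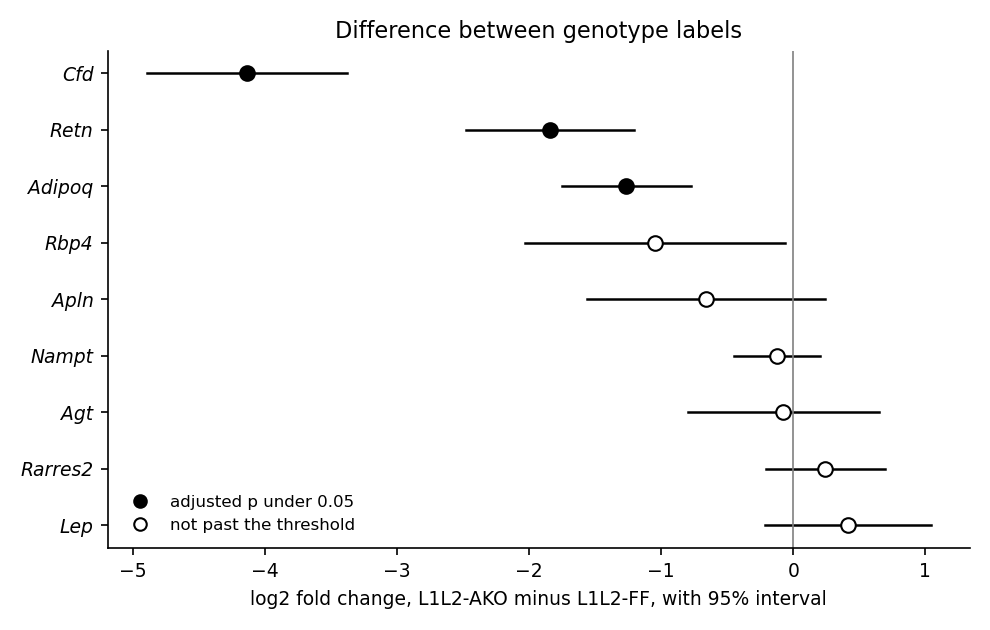
Log2 fold change of each adipokine, libraries labelled L1L2-AKO minus L1L2-FF, with its 95% interval from edgeR's quasi-likelihood fit. Filled points (Cfd, Retn, Adipoq) passed an adjusted p of 0.05, and the 6 open points did not.

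The order of the adipokines by level per kilobase of exon differed between the labels. In L1L2-FF, *Cfd* (4032 CPM per kilobase) stood above *Adipoq* (1526), *Retn* (464) and *Lep* (207), and the ranges of the first 3 did not overlap with that of the next gene in the order. *Rbp4* (129) overlapped with *Lep* above it and with *Rarres2* (58.9) below it. *Nampt* (31.2), *Agt* (29.4) and *Apln* (26.4) were lowest and overlapped with each other. In the libraries labelled L1L2-AKO, *Adipoq* led at 635 CPM per kilobase and *Lep* came next at 276, with *Cfd* at 229 overlapping it. *Retn* followed at 129, *Rarres2* at 69.7 and *Rbp4* at 62.4, the last pair overlapping. The bottom 3 were again *Nampt*, *Agt* and *Apln*, at 28.6, 27.9 and 16.7 CPM per kilobase. By rank among all counted genes with a known exon length, *Lep* moved from 171 to 106 while *Retn* moved from 63 to 297 and *Rbp4* from 306 to 732.

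Together the 9 genes took 0.784%, 0.945% and 0.659% of all counts in the L1L2-FF libraries and 0.293%, 0.240% and 0.280% in those labelled L1L2-AKO. *Adipoq* and *Cfd* made up 74.2%, 82.8% and 62.1% of these adipokine counts in L1L2-FF and 30.4%, 47.1% and 42.9% in those labelled L1L2-AKO. *Lep* made up 7.95%, 6.28% and 13.1% and then 41.3%, 26.2% and 32.6%. Most adipokine counts were thus of adipsin and adiponectin in the controls, and in the first library labelled L1L2-AKO leptin had more counts than any other of the 9. These are shares of reads, in which a longer transcript weighs more. The ratio of *Lep* to *Adipoq* CPM was 0.284, 0.234 and 0.520 in L1L2-FF and 1.68, 0.682 and 0.955 in those labelled L1L2-AKO. This ratio was picked after the values were seen and is given without a test.

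**Figure D3:**
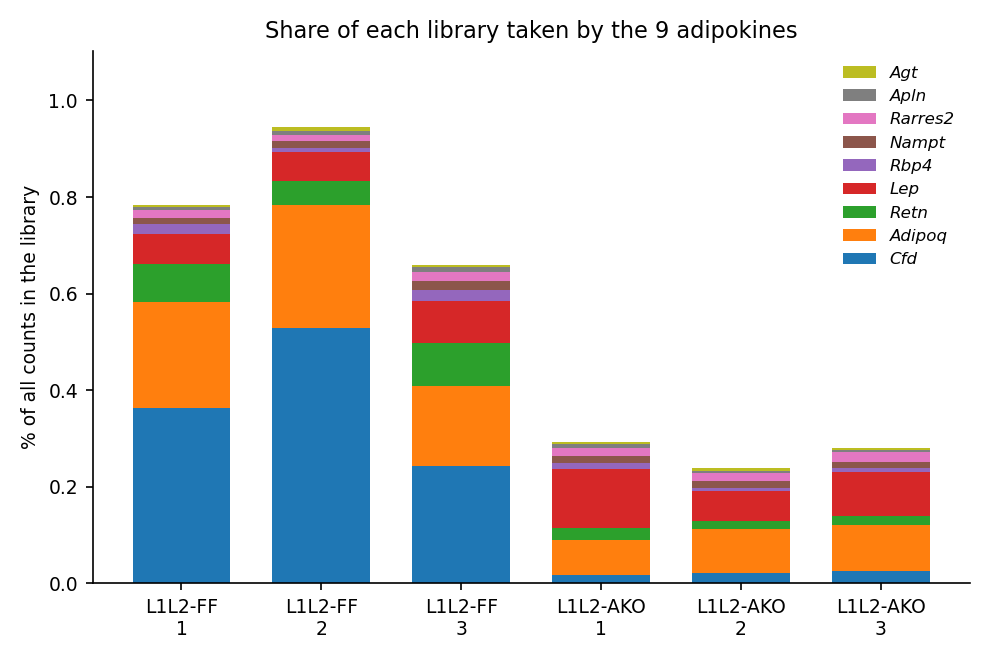
Percent of all counts of each library taken by the 9 adipokines, stacked by gene. The total is 0.659 to 0.945% in L1L2-FF and 0.240 to 0.293% in the libraries labelled L1L2-AKO, where the Cfd part is thin and the Lep part is not.

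Since 7 of the 15 adipocyte markers also fell, each adipokine was set against the mean log2 CPM of all 15 in its own library. That mean was 10.2 ± 0.12 in L1L2-FF and 9.24 ± 0.17 in the libraries labelled L1L2-AKO (SD, n = 3 each), which is 1.90-fold lower. On this relative log2 scale *Cfd* differed by -3.18 and *Retn* by -0.88, without overlap between the groups. *Lep* was higher by 1.32, *Rarres2* by 1.17 and *Nampt* by 0.82, also without overlap. Each of these 5 differences had p = 0.1 in a two-sided exact permutation test, the smallest that 3 libraries against 3 can give, so that no single one can pass 0.05. *Adipoq* differed by -0.34 (exact permutation p = 0.4), *Rbp4* by -0.07 (0.9), *Apln* by 0.18 (0.8) and *Agt* by 0.92 (0.2), all with overlapping groups. Relative to the markers, then, *Lep* was 2.50-fold and *Rarres2* 2.25-fold higher and *Cfd* 9.08-fold lower in the libraries labelled L1L2-AKO. The markers did not move as one: *Adrb3*, the beta-3 adrenergic receptor, had a log2 fold change of -2.62, and *Plin4*, a coat protein of lipid droplets, 0.00. With the median of the markers in place of their mean, the differences were -3.38 for *Cfd*, -1.08 for *Retn*, 1.13 for *Lep*, 0.98 for *Rarres2* and 0.62 for *Nampt*.

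**Figure D4:**
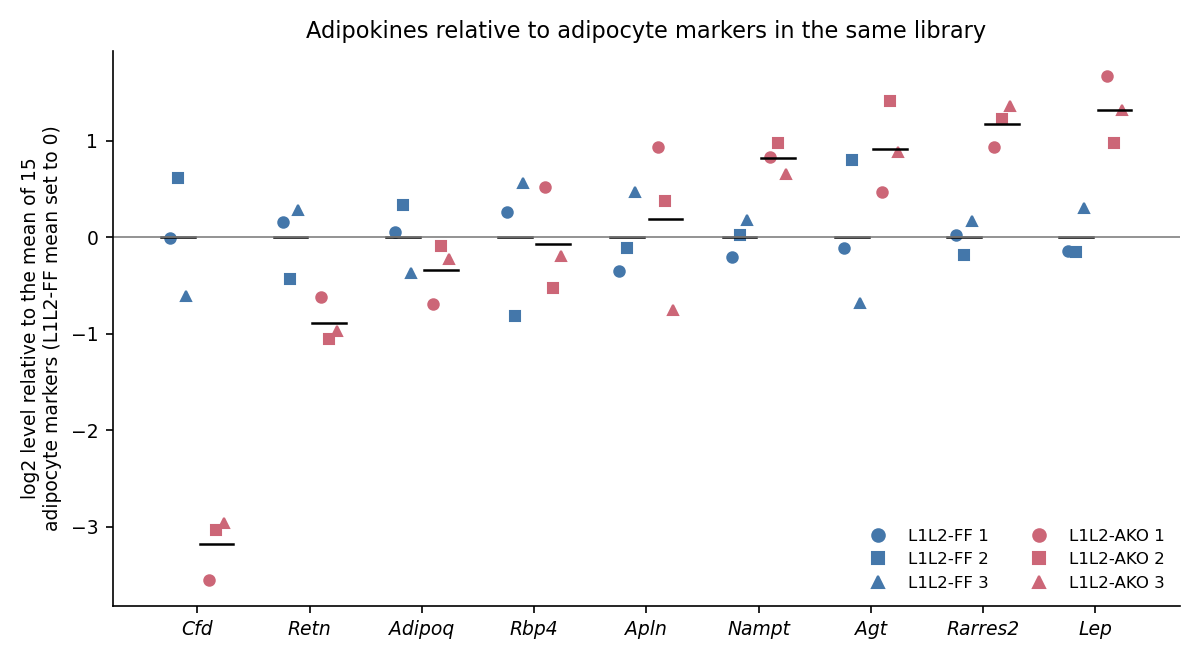
Log2 level of each adipokine minus the mean log2 level of 15 adipocyte markers in the same library, with the L1L2-FF mean of each gene set to 0 and black bars for group means (n = 3 each). Cfd and Retn lie below the controls, Nampt, Rarres2 and Lep above them, and the other 4 overlap.

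The promoter letters of the 3 genes that fell and of *Lep*, which did not pass the threshold, are shown to place them side by side. They are the last 120 of the 250 bases before the start in RefSeq (GRCm38.p6, the assembly of mm10), 5′ to 3′ on the gene's strand, in lower case. Capitals mark matches on either strand to the C/EBP motif TTGCNNAA or to the CCAAT box, the latter added after the sequences were seen.
Cfd, chr10:79890733-79890852, + strand: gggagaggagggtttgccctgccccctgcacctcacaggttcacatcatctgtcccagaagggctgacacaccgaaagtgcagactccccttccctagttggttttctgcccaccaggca
Adipoq, chr16:23146416-23146535, + strand: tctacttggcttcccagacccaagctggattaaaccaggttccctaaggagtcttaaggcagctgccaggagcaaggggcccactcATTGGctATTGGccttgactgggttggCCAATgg
Retn, chr8:3655650-3655769, + strand: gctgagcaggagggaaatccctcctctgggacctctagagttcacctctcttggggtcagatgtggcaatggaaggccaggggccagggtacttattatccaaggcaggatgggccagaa
Lep, chr6:29060101-29060220, + strand: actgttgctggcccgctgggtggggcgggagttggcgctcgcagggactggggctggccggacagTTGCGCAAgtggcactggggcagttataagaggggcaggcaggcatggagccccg
*Lep* alone of these 4 held a match to the C/EBP motif in its 250 bases, starting 55 bases before the start and reading the same on both strands, as 9.56% of 32851 mouse promoter windows of that length hold one. *Adipoq* held 3 CCAAT boxes, starting 34, 27 and 7 bases before the start, and 33.8% of windows hold at least one. *Cfd* and *Retn* held none of the motifs searched. For the 8 adipokines with an entry (all but *Rarres2*), the TEAD motif CATTCC, which 12.6% of all windows hold, was found in 0, and so was the E-box CACGTG (6.02%). The PPAR half-site AGGTCA (14.0%) was in *Nampt*, and its repeat with 1 base between the copies (0.0335%) in 0. The TATA letters TATAAA (12.4%) were in *Agt* and *Rbp4*, and the AP-1 motif TGANTCA (6.75%) and a C/EBP motif in *Rbp4*. These *Rbp4* matches lie in the window chr19:38124812-38125061, and a CCAAT box lies in its other window, chr19:38125322-38125571. Both *Rbp4* windows were searched, while each share is per window. These are letter matches only, and no binding was measured.

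Of 6 transcription factors known to act on adipokine promoters, 2 fell and 1 rose, beside 7.18% of all genes tested lower and 9.28% higher. *Pparg*, the main regulator of adipocyte differentiation, fell from 375 ± 11.4 to 250 ± 12.6 CPM (SD), with a log2 fold change of -0.59 (adjusted p = 0.0122, edgeR, Benjamini-Hochberg). *Srebf1*, a regulator of lipogenesis, fell by 0.73 and *Hif1a*, the oxygen-regulated factor, rose by 0.71 on the log2 scale. *Cebpa* (-0.37), *Ebf2* (-0.37) and *Rxra* (0.01) did not pass. Each of the 3 calls was lost without the second library labelled L1L2-AKO, where the adjusted p of *Pparg* was 0.0697 and that of *Srebf1* 0.113, and also without other single libraries, with 0.0854 for *Hif1a* without the first L1L2-FF library.

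The receptors, assembly factors and enzymes that work with the 9 adipokines were read from the same fit as a list of 33 genes. Of these, 27 were tested, 4 rose, 5 fell and 18 did not pass, and the median log2 fold change was -0.06. The share past the threshold was 33.3%, beside 16.5% of all genes. The list was chosen with earlier results of these data known, so this share describes the list and is not a test. Of the 9 calls, 4 (*C3*, *Cmklr1*, *Gstk1* and *C3ar1*) held without each library in turn. The count fell to 5 without the first L1L2-FF library and to 4 without the second library labelled L1L2-AKO.

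The complement genes around adipsin moved apart. *C3*, the protein whose activation adipsin promotes, was 4.62-fold lower, at 267, 236 and 198 CPM in L1L2-FF and 40.4, 54.8 and 56.6 CPM in the libraries labelled L1L2-AKO (adjusted p = 4.0e-04, edgeR, Benjamini-Hochberg). *C3ar1*, the receptor for the C3a fragment, was 2.52-fold higher, from 7.47, 8.94 and 4.67 to 18.9, 16.7 and 17.4 CPM (adjusted p = 0.0075, same test). C3ar1 is also carried by macrophages, whose 11 markers summed 2.63-fold higher, and their part in this value was not tested. *C5ar2* rose from 0.758 to 1.77 CPM (adjusted p = 0.0444, edgeR), a call lost without each of 4 single libraries (up to 0.164 without the second library labelled L1L2-AKO). With all 6 libraries that call was also lost with limma-voom, the replicate block, upper-quartile scaling and scaling by library size alone. *Cfb*, the substrate of adipsin, was near the limit of detection at 0.621 and 1.70 CPM and did not pass except with DESeq2's Wald test (adjusted p = 0.0210), and 73.0% of its 50-base stretches also occur in *Gm20547*.

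*Cmklr1*, the signalling receptor of chemerin, was 3.40-fold lower, with 50.4, 61.0 and 52.1 CPM in L1L2-FF and 19.6, 13.7 and 14.7 CPM in the libraries labelled L1L2-AKO (adjusted p = 6.6e-04, edgeR, Benjamini-Hochberg). The chemerin transcript itself, *Rarres2*, did not pass, and its other receptors *Gpr1* (0.33) and *Ccrl2* (0.24) did not pass either.

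Of the adiponectin receptors, *Adipor2* fell from 960 ± 8.94 to 619 ± 57.5 CPM (SD over 3 libraries each), or by 0.63 on the log2 scale (adjusted p = 0.0188, edgeR, Benjamini-Hochberg). Without the second library labelled L1L2-AKO its adjusted p was 0.0937, and the call was also lost without the first library of either label. *Adipor1* (-0.06) and *Cdh13* (-0.10), a binding protein of adiponectin multimers, did not pass. Of 3 genes for adiponectin assembly, *Gstk1*, which encodes DsbA-L, fell by 0.98 on the log2 scale, and *Ero1l* (0.34) and *Erp44* (0.28) did not pass.

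Tested receptors of the other adipokines were 2 for resistin, 2 for angiotensin peptides, 1 for leptin and 1 for apelin. Of these, 2 passed the threshold, beside 16.5% of all genes tested. *Lepr*, the leptin receptor, was barely present, at 2.25 ± 1.10 and 1.57 ± 0.275 CPM, and did not pass. *Cap1*, reported as a resistin receptor, rose from 182 ± 16.6 to 267 ± 11.1 CPM (log2 fold change 0.56), but its adjusted p rose to 0.0821 without the first L1L2-FF library (edgeR, Benjamini-Hochberg), and the call was also lost without the second or the third library labelled L1L2-AKO. *Agtr1a*, the main angiotensin receptor, rose from 28.6 ± 6.52 to 47.8 ± 3.40 CPM (0.74), a call lost without the second or the third library labelled L1L2-AKO, with an adjusted p up to 0.0961 (edgeR). *Aplnr*, the apelin receptor, was at 208 ± 41.3 and 151 ± 48.5 CPM and did not pass. Of the enzymes that make NAD beside NAMPT, *Nmrk1* fell by 0.75 on the log2 scale, a call lost without 3 single libraries (adjusted p up to 0.0797 without the second library labelled L1L2-AKO, edgeR), and *Naprt*, *Nmnat1*, *Nmnat2* and *Nmnat3* did not pass. The retinol binding protein receptors *Stra6* and *Stra6l*, the apelin receptor's other ligand *Apela*, and *Ren1*, *Agtr1b* and *Mas1* of the angiotensin pathway were below the filter on low counts.

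**Figure D5:**
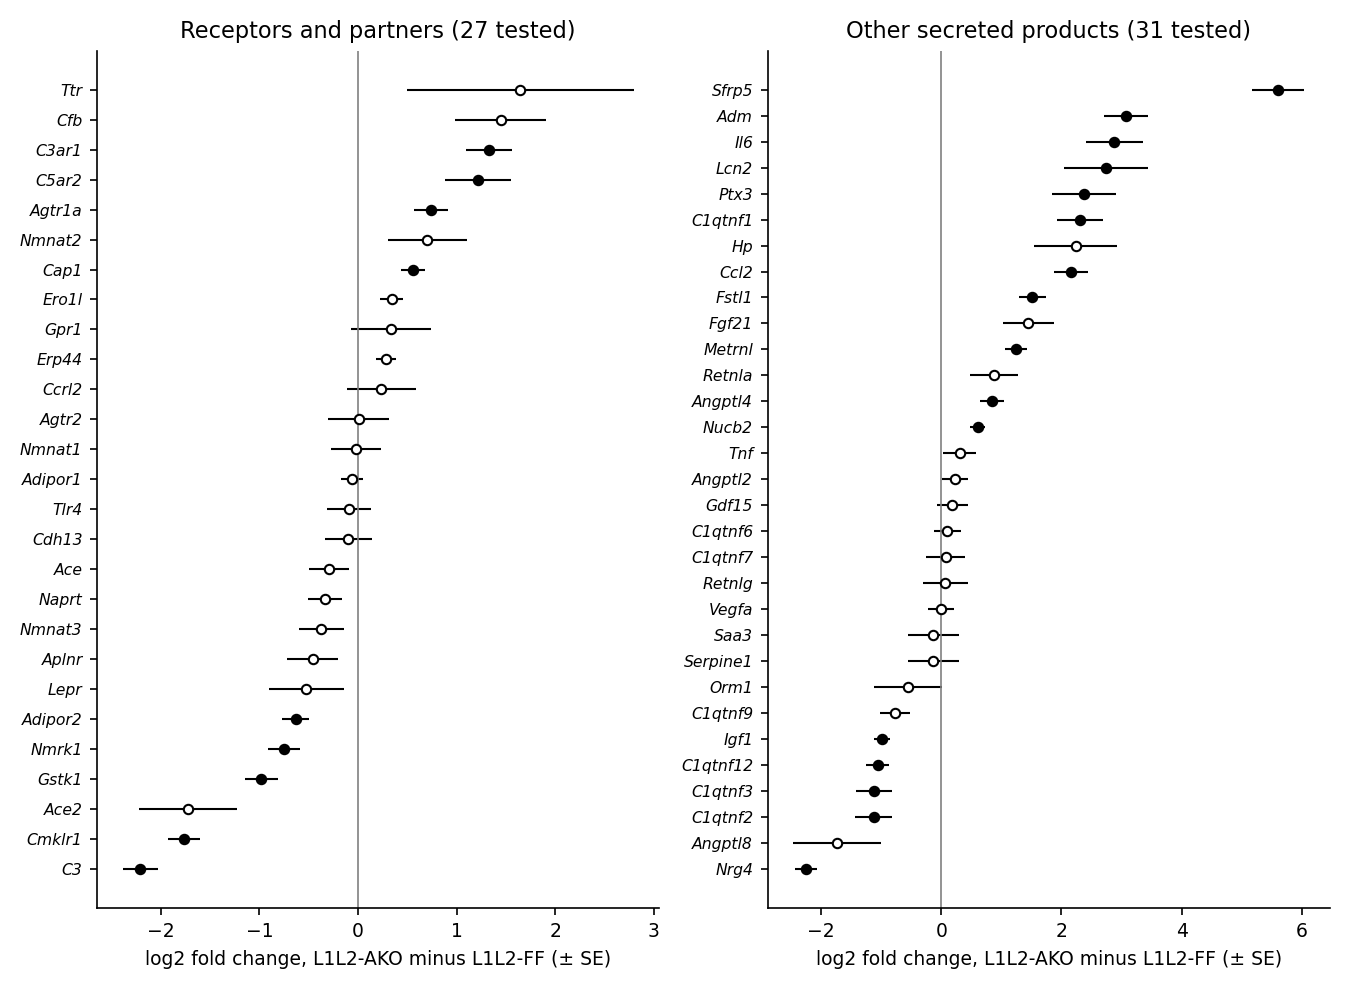
Log2 fold change (libraries labelled L1L2-AKO minus L1L2-FF, ± SE) of the 27 tested receptors and partners of the adipokines and of 31 other secreted products. Filled points passed an adjusted p of 0.05: 4 rose and 5 fell on the left, and 11 rose and 5 fell on the right.

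A second list held 38 other secreted products of adipose tissue, 31 of them tested. Here 11 rose, 5 fell and 15 did not pass, 51.6% beside 16.5% of all genes, with a median log2 fold change of 0.23. This list was also chosen with earlier results of these data known, so its share describes the list and is not a test. Without 1 library at a time the count lay between 9 and 17, and 9 of the 16 calls held in every such fit. Among the products that rose was *Sfrp5*, a secreted Wnt antagonist. It went from 7.53, 12.6 and 4.32 CPM in L1L2-FF to 276, 429 and 488 CPM in the libraries labelled L1L2-AKO. This was a 48.8-fold rise. *Adm*, the vasodilator adrenomedullin (8.44-fold), the cytokines *Il6* (7.35-fold) and *Ccl2* (4.45-fold), *Fstl1* (2.86-fold) and *Metrnl* (2.38-fold) also rose and kept the call without each library. Macrophages also make *Il6* and *Ccl2*, and the part of the 2.63-fold higher macrophage marker sum in these values was not tested. *Nrg4*, a growth factor released by fat, was 4.76-fold lower and *Igf1*, insulin-like growth factor 1, 1.98-fold lower, both in every such fit.

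The relatives of adiponectin did not all move the same way. Of the 9 C1q/TNF-related genes listed, which share the globular domain of adiponectin, 7 were tested, 1 rose and 3 fell, beside 9.28% of all genes higher and 7.18% lower. *C1qtnf1* was 4.94-fold higher (adjusted p = 0.0061, edgeR, Benjamini-Hochberg) and held without each library. *C1qtnf12* (-1.06), *C1qtnf2* (-1.13) and *C1qtnf3* (-1.12) fell on the log2 scale, but without the second library labelled L1L2-AKO the adjusted p of the first was 0.0504 and that of *C1qtnf2* 0.138, and the call of *C1qtnf3* was lost without 5 of the 6 libraries (up to 0.128 without the third library labelled L1L2-AKO; edgeR). Scaling by library size alone also lost the calls of *C1qtnf2* and *C1qtnf3*. Of the resistin family, *Retnla* (0.88) and *Retnlg* (0.07) did not pass, and *Retnlb* had 0 counts in all libraries.

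Of the 5 acute-phase products tested, 2 rose and 3 did not pass, beside 9.28% of all genes higher. For *Hp* and *Lcn2*, singled out after their values were seen, the first library labelled L1L2-AKO lay far below the other two of its label. *Hp*, haptoglobin, had 1025, 883 and 820 CPM in L1L2-FF, 659 CPM in that library and 5289 and 6918 CPM in the other two, and it did not pass (adjusted p = 0.0622, edgeR, Benjamini-Hochberg). It passed without that library (4.4e-04, same test), with no filter on low counts (0.0249) and with DESeq2's Wald test (0.0414). *Lcn2*, lipocalin 2, had 3.10, 5.29 and 2.97 CPM in L1L2-FF and 4.34, 36.2 and 35.8 CPM in the libraries labelled L1L2-AKO. Its call was lost with limma-voom and without each of 4 libraries (adjusted p up to 0.119 without the first L1L2-FF library, edgeR). *Ptx3*, the other acute-phase product that rose, split the same way, with 65.6 CPM in the first library labelled L1L2-AKO beside 202 and 213 CPM. In *Orm1* (147, 72.9 and 125 CPM) and *Saa3* (2.90, 1.93 and 4.43 CPM) the first library labelled L1L2-AKO was not apart from the rest of its label. Outside this group, *Il6* (12.8, 44.9 and 46.8 CPM) and *Adm* (44.3, 116 and 119 CPM) also split, and *Igf1* (284, 261 and 334 CPM) did not. Among the 9 adipokines, that same library had the lowest *Cfd*, *Adipoq*, *Agt* and *Rarres2* and the highest *Lep*, *Retn*, *Rbp4*, *Nampt* and *Apln* of its label. *Angptl4* (0.84), *Nucb2* (0.61) and *Ptx3* (2.38) rose on the log2 scale in the whole set, and each lost its call without the second library labelled L1L2-AKO, with adjusted p-values of up to 0.0827, 0.0680 and 0.0701 (edgeR). With the replicate block, the calls of *Angptl4* and *Ptx3* were also lost.

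For each adipokine, the genes closest in profile were taken as those with the smallest root mean square difference of centred log2 CPM over the 6 libraries, out of 10059 genes whose mean log2 CPM reached 3. For *Cfd* these were *Ces1d* (0.32) and *Ces1f* (0.44), both carboxylesterases, with log2 fold changes of -4.27 and -4.75. *Retn* was closest to *Dpt* (0.093) and *Cdkn2c* (0.16), and *Adipoq* to *Dnajb1* and *Per3* (both 0.10). *Lep* was closest to *Pla2g6* (0.14) and *Adk* (0.15), *Rbp4* to *Prxl2b* and *Slc25a10*, *Rarres2* to *Ost4* and *Pqlc3*, *Apln* to *Hddc3* and *Nes*, *Agt* to *Bach2* and *Zmat1*, and *Nampt* to *Mvb12a* and *Orc2*. Since the 6 libraries form 2 groups, genes with a like difference between the labels count as close by this measure.

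Around *Adipoq*, the genes within 100 kb were read because the Cre carries its promoter. *Kng1*, a kininogen gene 64.5 kb away, had 0, 2 and 2 counts in L1L2-FF, against 13, 58 and 43 in the 3 labelled L1L2-AKO (adjusted p = 0.0092, edgeR, Benjamini-Hochberg). It passed the filter on low counts only through the second group, and 17.2% of its 50-base stretches also occur in *Kng2*. *Eif4a2* (0.27), *Rfc4* (0.49) and *St6gal1* (-0.03) did not pass, and the other annotated genes there were not tested.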

How the data were processed

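Counts per gene were analysed for 6 libraries, 3 of each genotype label, with groups and replicate numbers taken from the labels. The authors captured mRNA with oligo(dT), sequenced paired ends on a BGISEQ-500 and aligned them to mm10. The submitters' processing notes name HISAT2 2.1.0 and StringTie 1.3.5. The authors deposited raw counts for each gene symbol, without normalization. The annotation, the counting program and its strand setting are not given in the sources used here, so reads of overlapping genes may be shared. Rows naming no gene numbered 0.

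Genes were filtered with filterByExpr (minimum count 10, minimum total count 15), scaled by TMM and tested with edgeR 4.0.16 (R 4.3.3) by the two-sided quasi-likelihood F test, with Benjamini-Hochberg adjustment over 15674 genes and a threshold of 0.05. The SE was derived from the fold change and its F statistic. The test was checked on simulated counts. Levels relative to adipocyte markers used log2 CPM with a prior count of 2. Positions and exon lengths come from GENCODE M21 and promoters from RefSeq. The members and lists were chosen with earlier results of these data known. Named genes are the 9 adipokines, the listed partners and secreted products past the threshold or named for their role, 6 promoter regulators, genes within 100 kb of *Adipoq* and the closest pair of genes in profile for each adipokine. Replicates differed by more than sampling noise. Nothing in the labels says how mice were assigned to pools, so p-values measure the spread between pools. Alternatives were other scalings, DESeq2 1.42.0, limma-voom (limma 3.58.1), edgeR's robust setting, other filters, a replicate block and each library left out. A count of 3 or fewer was taken as the floor.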

Additional observations from a re-analysis of the deposited data

How the results depend on the processing

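The calls of *Cfd*, *Retn* and *Adipoq* held in each of the 16 alternatives, and those of *Lep*, *Rarres2* and *Apln* stayed short of the threshold in each. *Rbp4* passed it with DESeq2's Wald test (adjusted p = 0.0477) and without the second L1L2-FF library (0.0234, edgeR). Without 1 library at a time, the log2 fold change of *Agt* ran from -0.33 to 0.34, turning to 0.34 without the second L1L2-FF library and to 0.11 without the first library labelled L1L2-AKO, and that of *Nampt* ran from -0.21 to 0.024, the latter without the L1L2-FF library numbered 3. Replicate numbers were not shown to pair the libraries: same-numbered libraries had correlations of 0.19, 0.26 and -0.05 in their deviations from the group means. Differently numbered libraries had correlations from -0.32 to 0.21, and whether the numbers mark pairs was not tested. With the replicate block, edgeR called 2514 genes in place of 2580 and 4 adipokines in place of 3, adding *Rbp4* (log2 fold change -0.99, adjusted p = 0.0265). Leaving out 1 library at a time gave 1281 to 2845 calls over all genes, 3 to 4 adipokines, 4 to 9 receptors and partners and 9 to 17 other secreted products. The lower counts come without the first L1L2-FF library (1290, 5 receptors and partners), the second library labelled L1L2-AKO (1281, 4, and 9 other secreted products) and the third (1374, and 10 other secreted products), and fewer libraries are tested there. Relative to the median of the adipocyte markers, the difference of *Nampt* was 0.62 in place of 0.82, that of *Lep* 1.13 in place of 1.32 and that of *Rarres2* 0.98 in place of 1.17. With upper-quartile scaling 1347 genes were higher and 1297 lower, in place of 1455 and 1125. The depth gave each adipokine at least 787 counts in every library, so that the spread between pools, not counting error, limits these values.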
